A study of Mus musculus with 6 samples.

Results

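Pericytes of the mouse lung were selected on measured values, the UMI counts of marker genes, from single-cell transcriptomes, and are described library by library. A barcode counted as a pericyte when at least 3 of 7 marker genes (Higd1b, Cox4i2, Gucy1a1, Gucy1b1, Trpc6, Kcnk3 and Lipg) had a unique molecular identifier (UMI, 1 per captured transcript), with at most 1 UMI in all over the smooth muscle and myofibroblast genes Myh11, Cnn1, Actg2, Hhip and Aspn, and at most 1 over Cldn5, Tie1, Ptprc, Etv5 and Rtkn2. Barcodes also needed 1500 UMIs in the Bdnf libraries or 700 in the Hgf libraries, and at most 25% mitochondrial UMIs. The rule took 454 of 70427 lung cells, out of 78320 cells in the whole series.

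The study asked whether growth factors made by pericytes act on the tissue around them. It profiled 4 lung libraries at postnatal day 21 (P21) and 2 libraries of cerebral cortex at P12 on the BD Rhapsody whole-transcriptome platform. The lung libraries come from Bdnf lox/lox mice (Bdnf control), Bdnf iPCKO mice, Hgf lox/lox mice (Hgf control) and Hgf iPCKO mice, and values below follow that order. Each is 1 library of cells pooled from 2 mice, so no comparison has a replicate, no p-value is given, and every interval covers counting error only.

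All mice received 50 µg tamoxifen daily from P1 to P3. The iPCKO mice carry floxed alleles of the named gene and the transgene Pdgfrb(BAC)-CreERT2, which drives an inducible recombinase from a Pdgfrb promoter and is also active in vascular smooth muscle cells. Controls carry the floxed alleles without CreERT2. Mice of either sex were used, and lung cells were depleted of CD45+ cells and erythrocytes. The cortex libraries, used here only for levels in cortical pericyte-like cells and for Pdgfrb and genes near it, come from Nodal lox/lox and Nodal iPCKO mice.

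Pericytes sit within the basement membrane of capillaries and contact the endothelium through it. Endothelial PDGF-B recruits and keeps them through the receptor PDGFRβ (Pdgfrb), and Notch3 helps them mature. Nitric oxide acts on them through soluble guanylate cyclase and cyclic GMP, which relaxes mural cells. In the lung they cover the alveolar capillaries, close to the alveolar epithelium, whose cells carry the HGF receptor Met.

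The 4 libraries held 70, 109, 70 and 205 pericytes by the rule, which is 0.418% (exact 95% interval 0.326 to 0.528), 0.459% (0.377 to 0.553), 0.497% (0.387 to 0.627) and 1.30% (1.13 to 1.48) of their cells. The Hgf iPCKO share lay above the other 3 beyond counting error. Alveolar type 2 (AT2)-like cells made up 41.0, 36.0, 42.9 and 27.0% of cells in the same libraries, so the denominator moved with the share, and its part in the difference was not tested. Median UMIs per pericyte were 3920, 2803, 1604.5 and 1524. No pericyte barcode was shared between libraries, while 243 to 432 cell barcodes of any kind were shared by a pair. Scrublet, a doublet caller, marked 0, 20, 0 and 1 of the pericytes.

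The label was checked against the markers of other cell types, and it did not hold for every cell. Smooth muscle-like markers were not among those compared, so no cell could count as led by them. In 15 of 70, 30 of 109, 5 of 70 and 23 of 205 pericytes the markers of another class had at least as many UMIs as the 7 pericyte markers. These cells held 55.4, 57.8, 12.3 and 21.1% of the UMIs. In the Bdnf control, 8 of them were led by matrix fibroblast markers and 3 by AT2 markers, and a single cell of 139615 UMIs led by neuronal genes (Nefm, Nefl, Snap25 and others) held 30.1% of the UMIs of all pericytes. In the Bdnf iPCKO, 15 were led by AT2 markers (15.9% of UMIs) and 6 by genes of airway club cells (24.8%). Club cell genes led 9 cells of the Hgf iPCKO, and AT2 markers led 3 of the 5 such cells of the Hgf control.

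The cells in which pericyte markers led, 55, 79, 65 and 182 of them, are called pericyte-led below, a split made after the data were seen. They summed to 206560, 217225, 112216 and 283063 UMIs. Values are given for pericyte-led cells, as CPM (the UMIs of a gene scaled to the UMI total of the same cells, not divided by gene length), and the counts of differing genes and the main lists and genes are given over all pericytes as well.

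**Figure D1:**
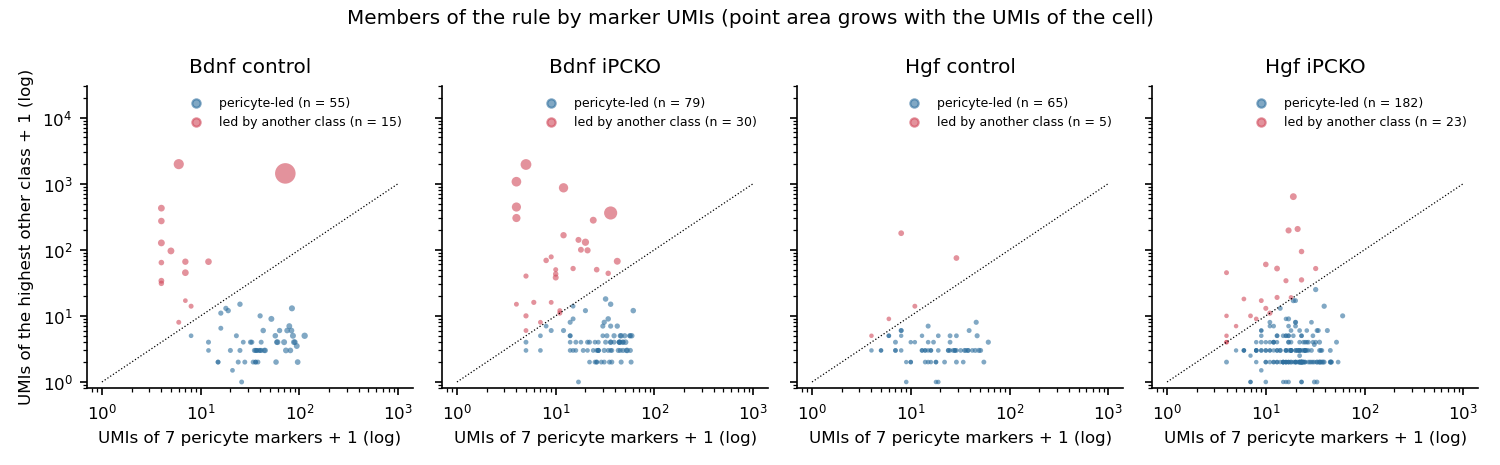
Each point is 1 pericyte by the rule, in 1 panel per lung library. The horizontal axis has the UMIs of the 7 pericyte markers plus 1. The vertical axis has those of the highest other class plus 1, and both axes are logarithmic. Point area grows with the UMIs of the cell. Blue points are pericyte-led and red points are led by another class, 15, 30, 5 and 23 cells in the 4 libraries.

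Cells near the limits of the rule are given as a description, since which class leads is read from the same markers. Of the pericytes with just 3 markers (14, 17, 7 and 32 cells), 85.7, 64.7, 28.6 and 31.3% were led by another class. Cells with 2 markers, just outside, were led by another class in 98.0, 92.5, 82.6 and 70.4% (51, 40, 23 and 27 cells). On the limit for smooth muscle and myofibroblast UMIs, cells with 2 such UMIs, just outside, had 449, 1905, 1402 and 3123 CPM of Pdgfrb and 2385, 2122, 1768 and 1910.1 CPM of Postn, against 543, 1571, 907 and 3287 CPM of Pdgfrb and 2287, 2664, 2115 and 1912 CPM of Postn in pericytes with 1. Acta2, which encodes smooth muscle actin and was not used by the rule, had 186, 238, 3049 and 303 CPM in the cells just outside and 62.0, 154, 790 and 85.9 CPM in pericytes with 1, and Tagln was likewise higher outside in 4 of 4 libraries.

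The targeted genes come first. Hgf (chr5:16758041-16828178, + strand, GRCm39), the growth factor that acts on Met, had 46, 32, 16 and 6 UMIs in pericyte-led cells, or 223, 147, 143 and 21.2 CPM. The Hgf iPCKO library was the lowest of the 4, at a log2 ratio to its control of −2.75 (−4.39 to −1.32), and −2.99 (−4.62 to −1.58) over all pericytes. In the Bdnf cross the log2 ratio was −0.60 (−1.29 to 0.09), an interval that includes 0. After thinning each cell to 700 UMIs, a UMI of Hgf was found in 10.9, 8.86, 9.38 and 2.78% of pericyte-led cells (45.5, 31.6, 16.9 and 2.75% before thinning), against 0.1, 0.1, 0.2 and 0% of AT2-like cells. In all other cells of the Hgf libraries together the log2 ratio was −1.76.

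Bdnf (chr2:109505045-109557475, + strand) could not serve as a check in these cells. Pericyte-led cells held 1, 1, 1 and 3 UMIs of this neurotrophin in all, and all pericytes 3, 3, 1 and 7. The resulting 4.84, 4.6, 8.91 and 10.6 CPM lay below the 32.4, 28.4, 32.6 and 29.5 CPM of barcodes without a cell (10 to 100 UMIs), so the counts cannot be told from free RNA. Smooth muscle-like cells had 45.3, 34.3, 40.9 and 42.3 CPM and myofibroblast-like cells 52.2, 45.8, 11.7 and 58.4 CPM. Nodal had no UMI in the pericytes of any of the 4 libraries. The receptors were as sparse, with 2, 1, 1 and 1 UMIs of Met and 0, 3, 1 and 0 of Ntrk2, the BDNF receptor TrkB.

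Of the marker genes of the rule, whose levels are a description, Gucy1a1, Gucy1b1 and Kcnk3 lay close together in the 4 libraries, and Lipg and Trpc6 ran in opposite orders. Gucy1a1 and Gucy1b1, the subunits of soluble guanylate cyclase, stood at 3529, 3236, 3217 and 3487 CPM and 2755, 2725, 2780.3 and 2643 CPM. The potassium channel Kcnk3 had 1477, 1547, 1559 and 1692 CPM. The lipase gene Lipg had 1525, 1841, 2129.8 and 2978 CPM, lowest in the Bdnf control and highest in the Hgf iPCKO. The cation channel gene Trpc6 ran the other way, at 1477, 902, 829 and 452 CPM. Cox4i2, the hypoxia-linked isoform of a cytochrome c oxidase subunit, had 784, 589, 1212 and 1092 CPM, and Higd1b, a mitochondrial protein, 281, 193, 329.7 and 353 CPM.

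Levels of all genes were also compared between pericytes and the other lung cells. The counts include the marker genes of the rule, while the 20 highest leave them out. The comparison shares its contrast with the rule, so it is a description. Of 1885 genes with at least 100 CPM in either set of cells in every library, 381 (20.2%) were at least 2-fold higher in pericyte-led cells than in all other lung cells of the same library in 4 of 4 libraries, and 313 (16.6%) at least 2-fold lower. Against smooth muscle-like cells it was 273 (15.9%) and 194 (11.3%) of 1716. For the 20 highest by their smallest ratio, that ratio lay between 49.6-fold and 138-fold.

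Among the genes higher in pericytes were 2 receptors of vasoactive ligands. The angiotensin receptor gene Agtr1a had 397, 469.6, 392 and 625 CPM against 2.71, 3.78, 2.05 and 5.06 in other lung cells, and the sphingosine phosphate receptor gene S1pr3 had 571, 336, 329.7 and 488 CPM against 7.19, 5.73, 4.75 and 6.06. The calcium-stimulated adenylate cyclase gene Adcy8 had 1544, 1165, 1239 and 869 CPM, and the matrix gene Postn (periostin) 3597, 3858, 2673 and 2328 CPM. In every library these 4 genes were at least 49.6-fold higher in pericyte-led cells than in the rest. Vtn, which encodes vitronectin, had 247, 221, 437 and 226 CPM against 29.0, 9.81, 107 and 10.6 in smooth muscle-like cells. Notch3 had 1733, 1938, 2192 and 2434 CPM against 767, 493, 1131 and 402 in smooth muscle-like cells, the nearest relatives in the lung.

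Pericytes of the lung and of the cortex shared part of this set and differed in the rest. The cortex libraries differ in age, tissue and preparation, so the levels are given side by side without a test. The 216 and 291 cortical pericyte-like cells of the Nodal control and Nodal iPCKO libraries had 1249 and 1301 CPM of Notch3, 869.7 and 809.6 CPM of Ndufa4l2 and 534 and 652 CPM of Mcam, beside the 1733, 1938, 2192 and 2434 CPM of Notch3, 537, 479, 668 and 703 CPM of Ndufa4l2 and 760.1, 658, 989 and 738 CPM of Mcam in the lung. Lung pericytes held far more Angpt1, the ligand of the endothelial receptor Tie2, at 1065, 852, 945 and 1053 CPM against 45.7 and 47.6 in the cortex. The T-box factor gene Tbx5 had 1457, 1219.9, 1390.2 and 2067 CPM in the lung and no UMI in either cortex library.

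Genes often used to mark brain pericytes are given next. Of these, Rgs5, Kcnj8, Abcc9 and Atp13a5 were among the markers that chose the cortical cells, so their high level there follows from the choice. Rgs5, a regulator of G-protein signalling, had 82.3, 175, 945 and 735 CPM in the lung against 21176 and 20362 CPM in the cortex. The subunits of an ATP-sensitive potassium channel, Kcnj8 and Abcc9, had 14.5, 23, 26.7 and 7.07 CPM and 33.9, 36.8, 35.6 and 42.4 CPM in the lung against 1131 and 1044 CPM and 2453 and 2170.4 CPM. Atp13a5 had 0, 9.21, 0 and 0 CPM in the lung against 1346 and 1263, and Foxd1 had no UMI in the lung against 164 and 179.6. Kcnk3 and Gucy1a1 had 22.1 and 13 CPM and 296 and 289.5 CPM in the cortex. Both are among the markers that chose the lung cells, so their higher lung levels follow from the rule.

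**Figure D2:**
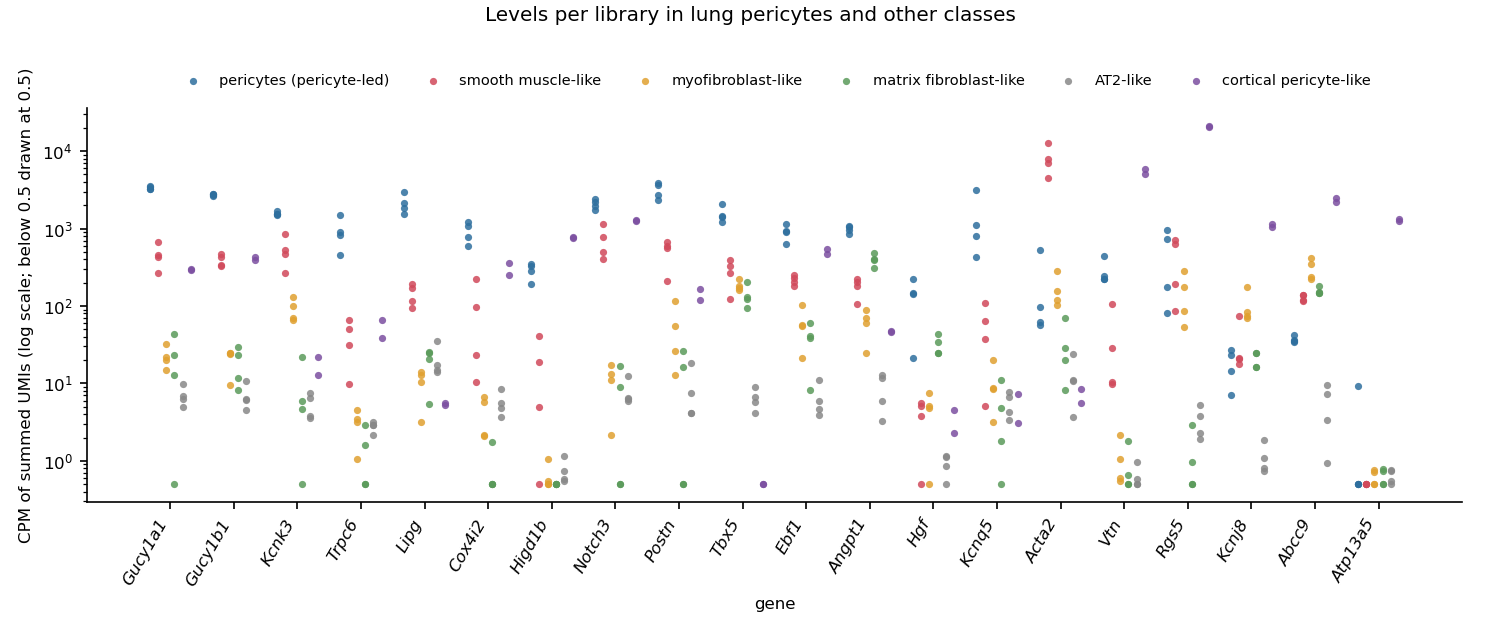
Level of 20 genes in CPM on a logarithmic axis, with 1 point per library, in pericyte-led, smooth muscle-like, myofibroblast-like, matrix fibroblast-like, AT2-like and cortical pericyte-like cells; values below 0.5 CPM are drawn at 0.5. Postn stands highest in pericyte-led cells. Gucy1a1, Gucy1b1, Kcnk3, Trpc6, Lipg, Cox4i2 and Higd1b were the markers that chose the lung pericytes. Higd1b, Vtn, Rgs5, Kcnj8, Abcc9 and Atp13a5 were among those that chose the cortical cells. Where the genes of these sets stand highest follows from the choice.

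Pdgfrb itself differed between genotypes in both lung crosses. The gene (chr18:61178212-61218133, + strand, GRCm39) had 142, 529, 142 and 1150 UMIs in pericyte-led cells, or 687, 2435, 1265 and 4063 CPM. Both iPCKO libraries stood above both controls. The log2 ratio of iPCKO to control was 1.82 (1.55 to 2.10) in the Bdnf cross and 1.68 (1.43 to 1.94) in the Hgf cross, and over all pericytes 1.92 (1.66 to 2.19) and 1.58 (1.33 to 1.84). The 2 controls differed by 0.88 (0.53 to 1.23), with the Hgf control higher. Thinned to 700 UMIs, 45.5, 82.3, 53.1 and 90.0% of pericyte-led cells had a UMI of Pdgfrb.

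The difference was seen in each of the other classes given here, which leave out immune-like cells. In smooth muscle-like cells the log2 ratios were 0.60 (0.29 to 0.92) in the Bdnf cross and 1.24 (0.66 to 1.82) in the Hgf cross. In myofibroblast-like cells they were 1.26 and 2.36, in matrix fibroblast-like cells 1.65 and 1.65, and in AT1-like cells 2.22 and 3.55. In endothelial-like cells they were 1.78 and 1.84, in AT2-like cells 2.13 and 2.06, and in barcodes without a cell 1.68 and 2.66. The levels behind them were unlike, since AT2-like cells had a UMI of Pdgfrb in 0.1, 0.7, 0.1 and 0.551% of cells after thinning. The part of free RNA in the ratios of classes with so few UMIs was not tested. In cortical pericyte-like cells Pdgfrb had 732 and 1989.7 CPM, a log2 ratio of 1.44 (1.34 to 1.55).

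Values of 2 genes on the downstream side are given beside it, and those of other nearby genes are not shown. Csf1r starts 11.6 kb beyond Pdgfrb and had log2 ratios of −0.01, −0.51 and −0.19 in the other cells of the Bdnf, Hgf and Nodal crosses. Hmgxb3, 46.2 kb beyond, had 0.07, −0.02 and 0.05. These ratios are over cells of all kinds together, whose mix was not held equal between libraries. In these 3 crosses every iPCKO library carries the Pdgfrb(BAC)-CreERT2 transgene and every control lacks it. Transcripts of the transgene and of the endogenous gene, and an effect of the deletion, cannot be told apart here.

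**Figure D3:**
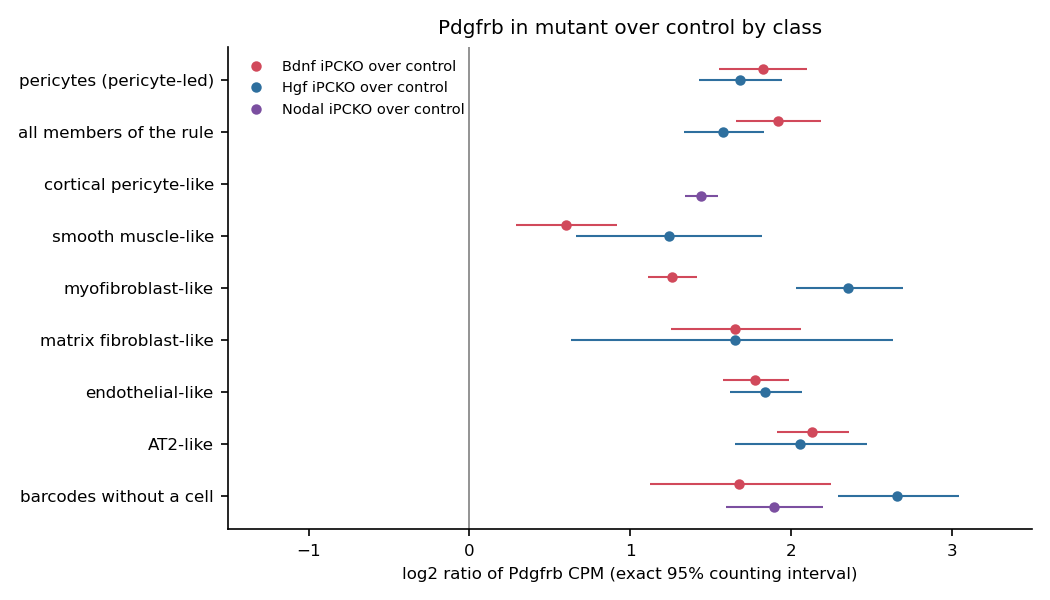
Log2 ratio of Pdgfrb CPM, iPCKO over control, with its exact 95% counting interval, by class of cell in the Bdnf, Hgf and Nodal crosses. The ratio lies above 0 in every class shown, at 1.82 and 1.68 in pericyte-led lung cells and 1.44 in cortical pericyte-like cells.

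Part of the genes differed the same way in both crosses. A gene was counted when it had at least 30 UMIs in a pair of libraries and differed at least 2-fold. Over all pericytes, 53 of 3318 genes (1.6%) were higher in both iPCKO libraries and 15 (0.452%) lower. In pericyte-led cells these numbers were 25 (1.04%) and 8 (0.333%) of 2403 genes, and 6 (0.25%) and 4 (0.166%) differed in opposite directions, higher or lower in the Bdnf iPCKO. Over all pericytes 0.332% and 0.211% did. With each cross counted by itself, 4.44% of genes were higher and 2.4% lower in pericyte-led cells of the Bdnf cross, and 10.3% and 5.4% in the Hgf cross.

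After Pdgfrb, the gene with the clearest difference in both crosses was Timp3, which encodes an inhibitor of matrix metalloproteinases that binds to the extracellular matrix. It had 301, 952, 204 and 2119 UMIs, or 1457, 4383, 1818 and 7486 CPM, and both iPCKO libraries stood above both controls. The log2 ratios were 1.59 (1.40 to 1.78) and 2.04 (1.83 to 2.26), and 1.49 (1.34 to 1.65) and 1.89 (1.70 to 2.09) over all pericytes. In all other lung cells they were 0.26 and 1.09, and in smooth muscle-like cells −0.46 and 0.74. Cortical pericyte-like cells had 181 and 306 CPM.

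The other genes higher in both had fewer UMIs. Hlf, a transcription factor under clock control, had 62.9, 216, 62.4 and 216 CPM, and Lpin1, a phosphatase of lipid synthesis, 96.8, 198, 125 and 367 CPM. Trp53inp1 had 67.8, 152, 89.1 and 555 CPM, the cell adhesion gene Sdk2 38.7, 106, 26.7 and 95.4 CPM, and the sulfotransferase gene Chst15 62.9, 127, 8.91 and 261 CPM. Hlf had near-equal levels in the 2 controls, while the Hgf control held a single UMI of Chst15.

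Genes lower in both included Gucy1a2, an alternative subunit of soluble guanylate cyclase, with 389, 139, 134 and 56.5 CPM. The procollagen processing gene Pcolce had 145, 69.1, 143 and 53.0 CPM and the tubulin gene Tuba1b 247, 106, 247 and 107 CPM. Emid1 had 479, 221, 463 and 210.2 CPM, Tecr, an enzyme of fatty acid elongation, 286, 134, 437 and 199.6 CPM, and Rassf5 111, 46.0, 196 and 53.0 CPM. Over all pericytes thinned to 700 UMIs the Bdnf ratio of Tuba1b turned to 0.36. For Emid1, Tuba1b and Pcolce the 2 controls lay close together and the 2 iPCKO libraries lay close together.

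**Figure D4:**
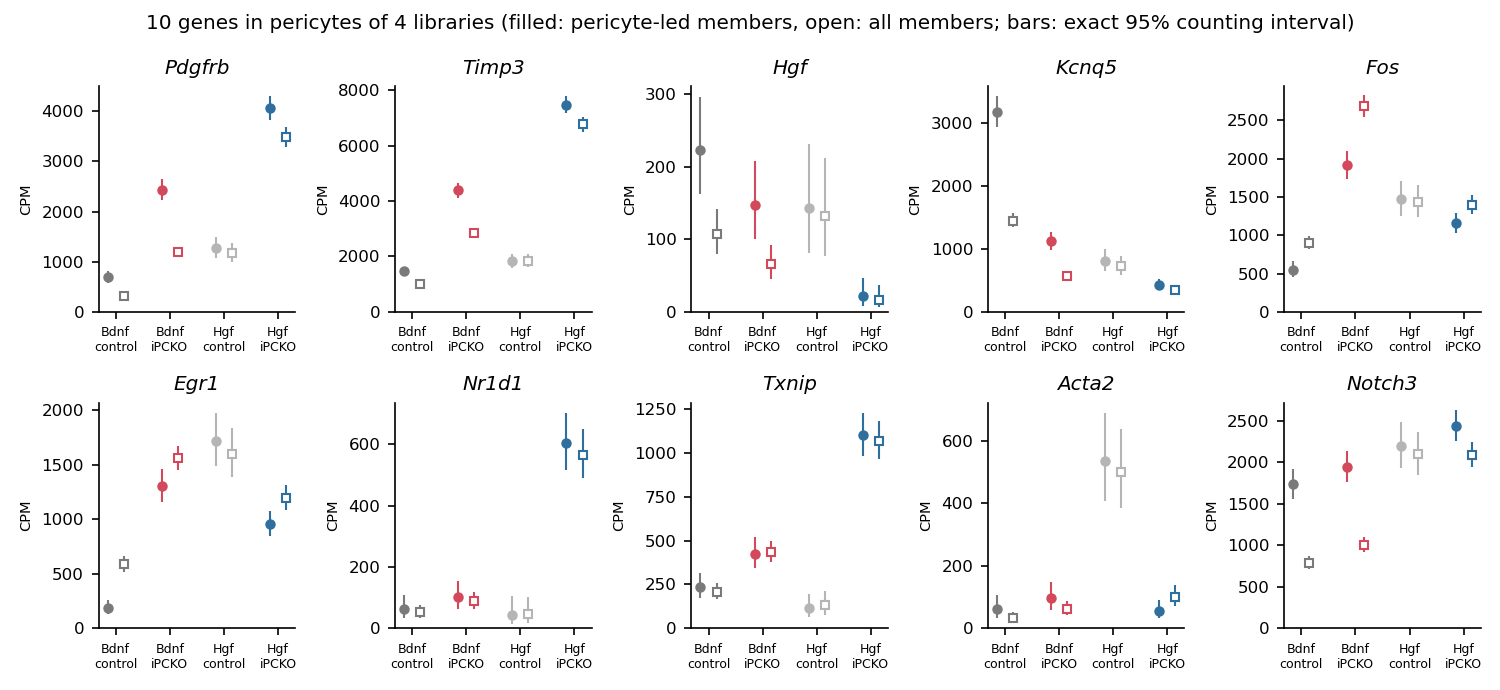
CPM with exact 95% counting intervals of Pdgfrb, Timp3, Hgf, Kcnq5, Fos, Egr1, Nr1d1, Txnip, Acta2 and Notch3 in the 4 lung libraries, with filled symbols for pericyte-led cells and open symbols for all pericytes. Pdgfrb and Timp3 are high in both iPCKO libraries, Fos and Egr1 are low in the Bdnf control, and Nr1d1 and Txnip are high in the Hgf iPCKO.

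In the Bdnf cross the count of differing genes rested on which cells were included. Over all pericytes, 391 of 6139 genes (6.37%) were at least 2-fold higher in the iPCKO and 533 (8.68%) lower, so that 42.3% of the differing genes were higher. In pericyte-led cells, 133 of 2994 genes (4.44%) were higher and 72 (2.4%) lower, and 64.9% of them were higher. With free RNA subtracted at a level set by AT2 genes, 30.5% were higher over all pericytes. That level also takes in AT2 RNA of the cells led by AT2 markers, so more than free RNA was subtracted. Of the 30 genes with the clearest difference over all pericytes, 30 had most of the UMIs of their higher library in cells led by another class. None of the 30 was among those named in pericyte-led cells, so the genes named here come from pericyte-led cells.

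Most of the measured immediate-early genes, which cells switch on within minutes of a stimulus, were higher in the Bdnf iPCKO. Of 13 measured, 10 were at least 2-fold higher and 0 lower, against 4.44% of all genes, with a median log2 ratio of 1.79 against 0.02 over all genes. Over all pericytes it was 13 of 19, against 6.37% of all genes, at a median of 1.41. Between the Hgf libraries 0 of 15 were higher and 2 lower, against 10.3% and 5.4% of all genes, at a median of −0.27. Over all pericytes of these libraries 1 of 16 was higher and 0 lower, against 10.3% and 6.04% of all genes. The median there was −6.22e-05. The transcription factor gene Fos had 552, 1910.5, 1470.4 and 1155 CPM, and its log2 ratio was 1.79 (1.49 to 2.10). Egr1 had 189, 1303, 1719.9 and 957 CPM, at 2.79 (2.30 to 3.31), and Nr4a1 62.9, 465, 553 and 300.3 CPM, at 2.89 (2.05 to 3.84). The Bdnf control had the lowest level of the 4 libraries for 13 of 13 of these genes.

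Junb had 121, 552, 579 and 480.5 CPM and Klf4 62.9, 368, 232 and 251 CPM, both lowest in the Bdnf control. In all other lung cells the median log2 ratio of the list was 0.40, with 0 of 13 genes past 2-fold, where the share of all genes was not counted. Fos in barcodes without a cell had 1513, 1998, 1382 and 1483 CPM. Among AT2-like cells thinned to 700 UMIs, 30.2, 42.1, 31.0 and 14.9% had a UMI of Fos, against 18.2, 38, 42.2 and 37.8% of pericyte-led cells.

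Few heat shock chaperones passed 2-fold in the Bdnf cross. Of 13 measured, 0 were 2-fold higher in the Bdnf iPCKO and 2 lower, against 2.4% of all genes, with a median log2 ratio of −0.53. Over all pericytes 0 of 14 were higher and 3 lower, against 6.37% and 8.68% of all genes, at −0.47. The Bdnf control was the highest of the 4 libraries for 13 of 13. Hspa8, the constitutive Hsc70, had 1125, 777, 354 and 284 CPM, and its partner Dnaja1 787, 419, 190.1 and 135 CPM. The chaperones past 2-fold were Hsph1, at 155, 55.2, 53.5 and 14.1 CPM, and Bag3, at 159.8, 78.3, 107 and 152 CPM. The Bdnf control was lowest of the 4 for the immediate-early genes and highest for the chaperones.

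Other genes higher in the Bdnf iPCKO included Ddit4, a stress-induced inhibitor of mTOR signalling, with 1, 41, 4 and 88 UMIs and 4.84, 189, 35.6 and 311 CPM. Its log2 ratio of 5.28 (2.73 to 10.62) rests on 1 UMI in the control. Cebpd, a transcription factor, had 203, 479, 454 and 869 CPM, at a log2 ratio of 1.24 (0.71 to 1.79). The activin receptor gene Acvr2a had 136, 285, 312 and 226 CPM, at 1.07 (0.41 to 1.77), but the Hgf control had the highest level of the 4. Mylip, a ubiquitin ligase of the LDL receptor, had 121, 272, 116 and 304 CPM, at 1.17 (0.47 to 1.90), and was also at least 2-fold higher in the Hgf iPCKO.

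Of 19 genes of fibrillar matrix and elastic fibres, 5 were higher in the Bdnf iPCKO and 0 lower, against 4.44% and 2.4% of all genes, at a median of 0.23. The 5 were Timp3, Eln, Col6a1, Ccn1 and Ccn2. Eln, which encodes elastin, had 479, 1699, 3489 and 1999.5 CPM, and the collagen VI gene Col6a1 382, 833, 651 and 1205 CPM. The matricellular gene Ccn2 (CTGF) had 459.9, 921, 1390.2 and 1537 CPM. For Eln, Ccn1 and Ccn2 the Bdnf control was the lowest library and the Hgf control stood above the Bdnf iPCKO. Over all pericytes, 2 of 22 genes of this list were higher and 4 lower, against 6.37% and 8.68% of all genes, at a median of −0.13. The fibrillar collagen genes Col1a2 and Col3a1 had 1999, 2003, 2459.5 and 2402 CPM and 1065, 1248, 1479 and 544 CPM, with log2 ratios of 0.00 and 0.23 in this cross.

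Genes named as lower in the Bdnf iPCKO included Kcnq5, Prkg1, Tafa1 and H19, for each of which the Bdnf control was the highest library. Kcnq5, a voltage-gated potassium channel gene, had 655, 243, 91 and 122 UMIs, or 3170.4, 1118, 811 and 431 CPM. Its log2 ratio was −1.5 (−1.72 to −1.29), and −1.36 (−1.56 to −1.15) over all pericytes, with −0.46 in all other lung cells and −1.54 in smooth muscle-like cells. The cyclic GMP-dependent kinase gene Prkg1 had 3552, 1501, 1399 and 1056 CPM, at −1.24 (−1.44 to −1.05). Tafa1, which encodes a secreted protein, had 407, 78.3, 89.1 and 14.1 CPM, at −2.38 (−3.22 to −1.61). The imprinted non-coding RNA H19 had 189, 27.6, 8.91 and 67.1 CPM, at −2.77 (−4.30 to −1.52) here but in the opposite order in the Hgf cross, where its control held 1 UMI. With at least 2 markers in place of 3 the Bdnf ratio of H19 turned to 0.70.

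The further genes named by the rule for this cross are given by direction. Higher were Hlf, Cog4, Col8a1, Ak3, Pcnp, Sdk2 and Aggf1, and lower were Cdc14b, St6galnac3, Gucy1a2, Lgals9, Aff2, Serpina1b, Stip1, Emid1, Rgs7bp, Gatm and Tcea1. Over all pericytes thinned to 700 UMIs, Aff2 and Gatm turned to 0.58 and 0.36, and without smooth muscle or myofibroblast UMIs Cog4 turned to −0.44. Col8a1, a collagen of vessel walls, had 38.7, 119.7, 285 and 526 CPM. The antiprotease gene Serpina1b had 226, 80.6, 0 and 0 CPM and shares its sequence with close paralogs, so its count is uncertain. In other lung cells 1 of the 15 genes named as higher was past 2-fold and 0 of the 15 named as lower, with median log2 ratios of 0.28 and −0.08. The share of all genes past 2-fold there was not counted. The genes were chosen on their ratios in pericytes, so smaller ratios elsewhere follow in part from the choice.

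In the Hgf cross the counts were close with and without the cells led by another class. Over all pericytes, 350 of 3408 genes (10.3%) were at least 2-fold higher in the iPCKO and 206 (6.04%) lower. In pericyte-led cells, 291 of 2833 (10.3%) were higher and 153 (5.4%) lower. Of the 15 genes named in each direction, 11 and 13 were named in both sets of cells.

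Most of the clock genes measured were higher in the Hgf iPCKO. Of 9 genes of the circadian clock, 7 were at least 2-fold higher and 0 lower, against 10.3% of all genes, with a median log2 ratio of 1.79 against 0.08 over all genes. Nr1d1, the repressor REV-ERBα, had 13, 22, 5 and 171 UMIs, or 62.9, 101, 44.6 and 604 CPM. Its log2 ratio was 3.76 (2.51 to 5.40), and 3.59 (2.45 to 5.06) over all pericytes, where 8 of 10 clock genes were higher, against 10.3% of all genes. The output genes Dbp and Tef had 4, 3, 1 and 30 UMIs and 43.6, 73.7, 44.6 and 177 CPM, and the period gene Per1 24.2, 41.4, 62.4 and 180.2 CPM. Clock and Rora, at log2 ratios of −0.16 and 0.51, were the measured genes that did not reach 2-fold.

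The same order was seen outside pericytes. In all other lung cells of the Hgf cross the median log2 ratio of the clock list was 2.24, with 7 of 9 genes past 2-fold. How many of all genes passed 2-fold in those cells was not counted. Nr1d1 stood at 2.86 there and at 4.03 in endothelial-like cells. For the Bdnf cross, 1 of 5 clock genes with 30 UMIs was higher, against 4.44% of all genes, at a median of 0.48.

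Most of the measured genes that respond to glucocorticoids were also higher. Of 16 measured, 10 were at least 2-fold higher in the Hgf iPCKO and 0 lower, against 10.3% and 5.4% of all genes, with a median log2 ratio of 1.5, against 1.02 in all other lung cells. For 9 of the 10 the interval lay above 0, and 3 of the 16 had a ratio below 0. Over all pericytes it was 11 of 17, against 10.3% of all genes, at 1.93. Fkbp5, a chaperone of the glucocorticoid receptor, had 150.1, 198, 62.4 and 297 CPM. Tsc22d3 (GILZ) had 213, 318, 196 and 541 CPM and the zinc finger gene Zbtb16 295, 336, 26.7 and 155 CPM. The receptor gene Nr3c1 itself had a log2 ratio of −0.01. Between the Bdnf libraries 3 of 11 were higher, against 4.44% of all genes, at a median of 0.58.

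Of the genes named by the rule as higher in the Hgf iPCKO, Txnip, Glul, Angptl4 and Pnpla2 have roles in metabolism. Txnip, an inhibitor of glucose uptake, had 237, 424, 116 and 1099 CPM, at a log2 ratio of 3.25 (2.45 to 4.17), and at 1.94 in all other lung cells. The glutamine synthetase gene Glul had 445, 801, 472 and 2667 CPM, at 2.5 (2.09 to 2.93). The lipoprotein lipase inhibitor gene Angptl4 had 77.5, 147, 89.1 and 601 CPM and the triglyceride lipase gene Pnpla2 58.1, 73.7, 62.4 and 403 CPM. In all 4 genes the Hgf iPCKO was the highest library.

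Secreted and receptor genes higher in the Hgf iPCKO included Fst, which encodes the activin antagonist follistatin, with 208, 345, 241 and 1003 CPM, at a log2 ratio of 2.06 (1.49 to 2.69). Apoe had 77.5, 101, 116 and 427 CPM and the surface protein gene Gas1 29.0, 78.3, 89.1 and 364 CPM. Notch4, a receptor known mainly from endothelium, had 2, 6, 0 and 35 UMIs, which makes it 4.63-fold higher with the count of 0 set to 3 UMIs. The other genes named by the rule were Chst15, Timp3, Trp53inp1, Acaa2, Pdgfrb and Zfp503. In all other lung cells of the same libraries, 9 of the 15 genes, which include Pdgfrb, were past 2-fold, at a median log2 ratio of 1.19. The share of all genes past 2-fold in those cells was not counted.

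Endothelial markers stood beside these genes and were measured with them. The 14 endothelial genes summed to 1648, 2250, 2059 and 3536 CPM in pericyte-led cells, against 5623, 5769, 7026 and 9438 CPM in other lung cells, and 1, 0, 2 and 0 of them had no UMI in pericyte-led cells. Between the Hgf libraries 3 of 6 with 30 UMIs were at least 2-fold higher, against 10.3% of all genes, and the VEGF receptor gene Kdr had 102, 295, 62.4 and 403 CPM. The 10 AT1 genes summed to 1646, 1637, 1034 and 1561 CPM, and between the Hgf libraries 2 of 3 with 30 UMIs were at least 2-fold higher, at a median log2 ratio of 3.09. In the Bdnf cross 2 of 5 endothelial genes were higher, at a median of 0.69, and 1 of 4 AT1 genes, against 4.44% of all genes. The 13 AT2 genes summed to 1700, 1753, 1987 and 735 CPM, and the 11 airway genes to 736, 1855, 1096 and 1982 CPM. The part of RNA from other cells in any single difference was not tested.

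The gene named first as lower in the Hgf iPCKO was Acta2, of the contractile list. Of 13 contractile genes outside the rule, 5 were at least 2-fold lower and 0 higher, against 5.4% of all genes lower, with a median log2 ratio of −0.96. Over all pericytes 8 of 15 were lower, against 6.04% of all genes, at −1.04. The Hgf control was the highest of the 4 libraries for 12 of 13. Smooth muscle actin, Acta2, had 13, 21, 60 and 16 UMIs, or 62.9, 96.7, 535 and 56.5 CPM. Its log2 ratio was −3.24 (−4.14 to −2.43), against −2.32 (−2.95 to −1.71) over all pericytes. The myosin light chain gene Myl9 had 252, 198, 517 and 88.3 CPM and Tagln (SM22) 174, 262, 811 and 300.3 CPM.

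Mylk, the myosin light chain kinase gene, had a log2 ratio of 0.01. In smooth muscle-like cells Acta2 differed by −1.47 (−1.63 to −1.33), and in all other lung cells by −1.40. The median of the contractile list in other lung cells was −0.56. Between the Bdnf libraries 0 of 12 contractile genes passed 2-fold in either direction, near the 4.44% of all genes higher and 2.4% lower, at a median of −0.12, and Acta2 stood at a log2 ratio of 0.62 (−0.45 to 1.74). The Acta2 level of the Hgf control was above those of the other 3 libraries, which lay between 56.5 and 96.7 CPM. It rested on a minority of cells, since 16 of 65 pericyte-led cells of the Hgf control had a UMI of Acta2, with up to 12 in a cell, and 9 of 182 of the Hgf iPCKO. Over all pericytes of the Hgf control, the 7 cells with just 3 markers held 20 UMIs of Acta2 (2188 CPM) and 39 of Tagln (4267 CPM). With at least 4 markers the Acta2 ratio over all pericytes was −2.51 and with no smooth muscle or myofibroblast UMI −1.69.

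Other genes lower in the Hgf iPCKO included Actb (β-actin), which had 5386, 6073, 6789.7 and 2294 CPM, at a log2 ratio of −1.57 (−1.72 to −1.41), and the tubulin gene Tuba1a 1023, 669.8, 1429 and 353 CPM, at −2.01 (−2.39 to −1.64). Serpinh1, the collagen chaperone HSP47, had 769.8, 506, 927 and 191 CPM, at −2.28 (−2.78 to −1.79). N-cadherin, Cdh2, which joins pericytes to endothelium, had 290.5, 262, 383 and 106 CPM, at −1.85 (−2.58 to −1.15). The collagen genes Col3a1 and Col5a2 had 1479 and 544 CPM and 508 and 251 CPM in the Hgf control and Hgf iPCKO, while Col1a2 had 2459.5 and 2402.

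The growth-associated gene Gap43 had 450.2, 308, 713 and 173 CPM and the extracellular superoxide dismutase gene Sod3 208, 138, 285 and 42.4 CPM. The adhesion receptor gene Adgrg6 had 1661, 1284, 1684 and 551 CPM, at a log2 ratio of −1.61 (−1.93 to −1.30). The other genes named by the rule as lower were Phlda1, Spon2, Cxcl1, Calr, Ccn1, Hsd11b1 and Kank4. In all other lung cells of the same libraries, 8 of the 15 were past 2-fold, at a median log2 ratio of −1.03. No share of all genes was counted in those cells to set beside this.

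The lists that describe the pericyte as a cell type hold few measured genes, and their counts stand beside 4.44% of all genes higher and 2.4% lower in the Bdnf cross and 10.3% and 5.4% in the Hgf cross. At those shares, 0 past 2-fold in a list of 6 or 9 genes is near the background. Of 9 transcription factors measured, 0 passed 2-fold in the Bdnf cross and 0 in the Hgf cross. Tbx2 had 663, 649, 900.0 and 1049 CPM, Foxf1, a factor of lung mesenchyme, 445, 506, 419 and 809 CPM, and Ebf1 1143, 939, 900.0 and 632 CPM. Of 6 vasoactive receptors, 0 passed in either cross. The endothelin receptor gene Ednra had 542, 621, 642 and 618 CPM and the thrombin receptor gene F2r 1026, 1279.8, 1363 and 2134 CPM, highest in the Hgf iPCKO.

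Among genes of cyclic nucleotide signalling, leaving out the rule markers Gucy1a1 and Gucy1b1, 0 of 9 were higher and 2 lower in the Bdnf cross (Gucy1a2 and Prkg1), against 2.4% of all genes lower. Over all pericytes 0 of 11 passed in either direction, where 6.37% of all genes were higher and 8.68% lower. In the Hgf cross 1 of 7 was higher (Npr3, 107 and 226 CPM), against 10.3%, and 2 were lower, against 5.4%, Gucy1a2 and the cyclic GMP phosphodiesterase gene Pde5a, which had 2948, 2099, 3929.9 and 1547 CPM. Of 5 potassium and calcium channel genes other than the rule markers Kcnk3 and Trpc6, Kcnq5 was lower in the Bdnf cross, against 2.4% of all genes, and 0 passed 2-fold in the Hgf cross, with median log2 ratios of −0.85 and −0.58. The calcium channel gene Cacna1c stood at −0.95 in the Bdnf cross.

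Of the surface proteins known from mural cells, 6 were measured in each cross. Besides Pdgfrb, Cdh2 in the Hgf cross was the member past 2-fold. Cspg4 (NG2) had 533, 409.7, 437 and 247 CPM and the integrin gene Itga1 3489.9, 3099, 3444 and 1804 CPM. Notch3 stood at log2 ratios of 0.16 (−0.05 to 0.37) and 0.15 (−0.06 to 0.37). Of the Notch pathway, 0 of 8 genes passed in the Bdnf cross, and 2 of 9 were higher in the Hgf cross, against 10.3% of all genes, Notch4 and Notch2, which had 315, 405, 196 and 438 CPM.

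In the PDGF, TGF-β and BMP list, 2 of 15 genes were higher in the Bdnf cross, against 4.44% of all genes, Pdgfrb and Acvr2a. Between the Hgf libraries, where 10.3% of all genes were higher and 5.4% lower, 2 of 17 were higher, Pdgfrb and the co-receptor gene Tgfbr3 (387, 329, 276 and 740.1 CPM), and 2 lower, Acvrl1 (67.8, 50.6, 187 and 74.2 CPM) and Bambi (58.1, 73.7, 134 and 63.6 CPM), whose interval includes 0. Against the same shares, the basement membrane list had 1 of 15 genes higher in the Bdnf cross (Col4a4, 24.2 and 115 CPM) and 2 of 13 in the Hgf cross, Lamc3 (37.9 and 109.5 CPM) and Nid2 (107 and 226 CPM), with 0 lower in either. The collagen IV gene Col4a1 had 5659, 4116, 4830.0 and 6779 CPM.

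Of 59 genes of secreted growth factors, 14 had 30 UMIs in a pair. Of these, 2 were higher in the Bdnf iPCKO, against 4.44% of all genes, namely Vegfa, which acts on endothelium, with 77.5, 230.2, 71.3 and 84.8 CPM, and Igf2, with 48.4, 99, 40.1 and 30.0 CPM, whose log2 ratio of 1.06 (−0.07 to 2.31) has an interval that includes 0. In the Hgf iPCKO 2 of 14 were higher, against 10.3%, namely Pgf (44.6 and 127 CPM) and the netrin gene Ntn4 (339, 635, 802 and 2053 CPM). Hgf was 2-fold lower in the Hgf cross by its own ratio but had fewer than 30 UMIs there and so was not counted. Kitl had 629, 663, 419 and 300.3 CPM, Pdgfa 566, 442, 437 and 396 CPM, Hbegf 586, 548, 535 and 827 CPM and the lysophosphatidic acid enzyme gene Enpp2 619.7, 741, 918 and 1166 CPM.

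Inflammatory and cell cycle genes were sparse, and lists this short cannot be told from the shares of all genes (4.44% higher and 2.4% lower in the Bdnf cross, 10.3% and 5.4% in the Hgf cross). Of 3 interferon-stimulated genes with 30 UMIs, 0 passed 2-fold in either cross, and of 4 antigen presentation genes H2-K1 was lower in the Bdnf iPCKO (234, 87.5, 169 and 191 CPM). Of 5 inflammatory genes in the Hgf cross Nfkbia was higher in the Hgf iPCKO (145, 193, 214 and 594 CPM) and Cxcl1 lower (0, 92.1, 187 and 31.8 CPM). Of 6 cell cycle genes with 30 UMIs in the Hgf cross 2 were higher, against 10.3% of all genes, the cyclin gene Ccnd3 (218, 179.5, 71.3 and 286 CPM) and the cell cycle inhibitor gene Cdkn1a (24.2, 59.8, 17.8 and 124 CPM), and 0 of 5 passed in the Bdnf cross. The proliferation gene Mki67 had no UMI in pericyte-led cells of any library.

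**Figure D5:**
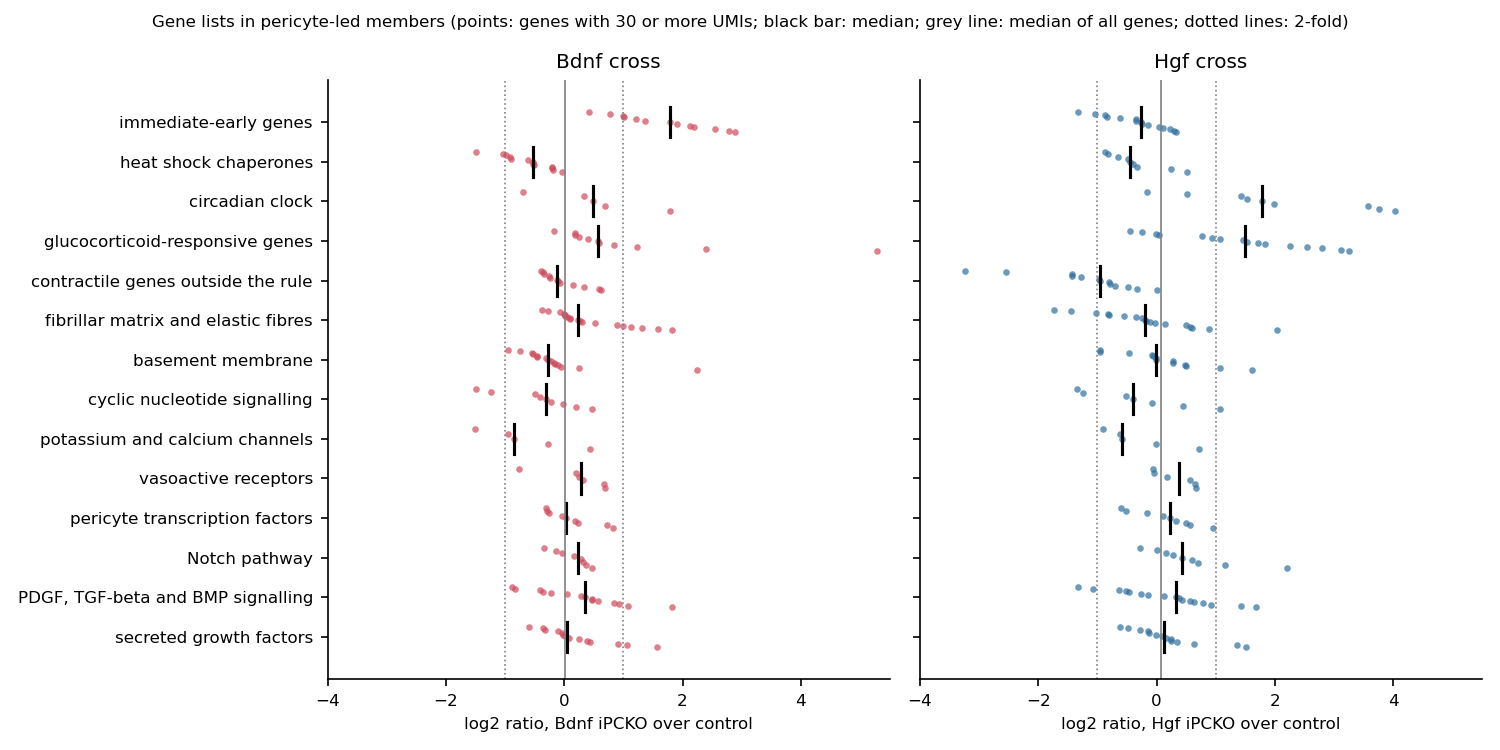
Log2 ratio of iPCKO over control in pericyte-led cells for each gene with at least 30 UMIs in 14 lists, without the marker genes of the rule, in the Bdnf and Hgf crosses; black bars are list medians, the grey line is the median of all genes and dotted lines mark 2-fold. Immediate-early genes stand high in the Bdnf cross (median 1.79), clock and glucocorticoid-responsive genes in the Hgf cross (1.79 and 1.5), and contractile genes low in the Hgf cross (−0.96).

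The 2 controls carry no deletion in these cells and still differed. In pericyte-led cells, 141 of 2222 genes (6.35%) were at least 2-fold higher in the Hgf control and 167 (7.52%) in the Bdnf control, beside 4.44% higher and 2.4% lower in the iPCKO between the Bdnf genotypes and 10.3% and 5.4% between the Hgf genotypes. Over all pericytes it was 370 (8.79%) and 746 (17.7%) of 4207, so 33.2% of differing genes were higher in the Hgf control over all pericytes and 45.8% in pericyte-led cells. Higher in the Hgf control were Spp1 (osteopontin), Rgs5, Eln, Acta2 and Plac9, the last with 329, 221, 1542 and 1448 CPM. Spp1 had 0, 4, 123 and 269 UMIs, 75.5-fold with the count of 0 set to 3 UMIs. Higher in the Bdnf control were H19, Kcnq5, Dnaja1, Hspa8, Prkg1 and the GDNF-family receptor gene Gfra2, with 469.6, 566, 107 and 53.0 CPM. The 2 controls differ in their floxed allele, in depth and in library, which cannot be told apart.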

How the data were processed

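Cells of 6 libraries were profiled on the BD Rhapsody whole-transcriptome platform, with 40000 cells of 2 mice prepared per library. Per the methods and the submitters' processing notes, reads were aligned and counted with STARsolo of STAR 2.7.10a on GRCm39 with a Gencode annotation, without a cell filter. The study names the annotation release in 2 ways. The matrices the authors deposited hold estimated counts of UMIs, not normalized, in which reads matching several genes were shared between them (8.50 to 9.95% of entries in the lung were not whole), and 912673 barcodes are listed per library. Total UMIs were 169814433, 186701379, 73446420 and 69403166 in the Bdnf control, Bdnf iPCKO, Hgf control and Hgf iPCKO.

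Pericytes were chosen with earlier results of these data known, and so were the gene lists and the rule for named genes. UMIs were summed over the pericytes of a library and divided by their total (CPM), with exact Poisson 95% intervals. Log2 ratios carry conditional exact intervals and shares of cells Clopper-Pearson intervals, with counts rounded to whole numbers where needed (scipy 1.17.1, numpy 2.4.6, pandas 2.3.3). A gene with at least 30 UMIs in a pair was counted as differing at a ratio of 2-fold, a count of 0 was set to 3 UMIs, and no test was run because each group is 1 library. Replicate error between mice is therefore not measured.

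Named genes were the 15 per cross and direction whose interval bound lay farthest from 0, given a CPM at least 2 times that of barcodes without a cell (10 to 100 UMIs) in the higher library. They also include up to 10 genes per direction that met this in both crosses, the 20 with at least 100 CPM in every lung library and the highest smallest ratio to other lung cells, and members of the lists. Mitochondrial and ribosomal protein genes, repeated symbols and unnamed gene models were left out. Other classes needed at least 3 of their markers and more than of any other class. For the check of the label, marker sets of neurons and of club, ciliated and mesothelial cells were added after the data were seen. Doublets were called by Scrublet (scanpy 1.11.5, expected rate 10%) and kept, apart from the setting without them. Thinning drew 700 UMIs per cell, and at most 2000 AT2-like cells were drawn. Free RNA was taken as the profile of barcodes without a cell, scaled to the median ratio over 6 AT2 genes in the summed pericytes. The code was checked on simulated counts.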

Additional observations from a re-analysis of the deposited data

Results flagged for a closer look

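Ccn1, a matricellular gene induced by growth factors and stretch, differed in opposite directions in the 2 crosses. Over all pericytes it had 50, 175, 81 and 94 UMIs, or 108, 340.3, 633 and 262 CPM, so that the Bdnf iPCKO lay above its control by a log2 ratio of 1.66 (1.20 to 2.14) and the Hgf iPCKO below its control by −1.27 (−1.72 to −0.83). In pericyte-led cells the ratios were 1.31 and −1.73. Each direction rests on 1 library per genotype, and the difference was not tested. Barcodes without a cell had 304, 345, 291 and 312 CPM, and in all other lung cells the log2 ratios were 0.34 and 0.18.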

How the results depend on the processing

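No paired analysis was possible because each group is 1 library. The share of pericytes (0.418, 0.459, 0.497 and 1.30%) moved to 0.722, 0.627 and 0.660% in the first 3 libraries with at least 2 markers, to 0.257, 0.299, 0.333 and 0.853% with no smooth muscle or myofibroblast UMI, to 0.579 and 0.576% in the Bdnf libraries when cells were thinned to 700 UMIs first, to 0.307 and 0.848% in the Hgf libraries with 1500 UMIs, to 1.09% in the Hgf iPCKO with at least 4 markers, and to 0.332% in the Bdnf iPCKO for pericyte-led cells. The Hgf iPCKO share stayed the highest of the 4 under each of these.

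The number of genes past 2-fold in the Bdnf cross, 924, became 77 after thinning, 514 at 50 UMIs, 2370 at 10 UMIs and 205 in pericyte-led cells. In the Hgf cross 556 became 212, 274 and 1831 under the first 3 settings, and the 68 genes shared by both crosses became 17, 40, 258 and 33. Between controls 1116 became 308 in pericyte-led cells. Thinning and the UMI limits change how many genes are tested. Of genes past 2-fold in the Bdnf cross, 42.3% were higher, and 30.5% with free RNA subtracted at the level set by AT2 genes. It was 64.9% after thinning, 64.9% in pericyte-led cells and 24.7% with at least 2 markers. Between controls 33.2% became 57.1% after thinning. Subtraction of free RNA moved the median log2 ratio of all genes in the Bdnf cross from −0.05 to −0.12, and thinning that of the controls from −0.04 to 0.11. Bdnf read 40.8 and 26.2 CPM in the Bdnf control and iPCKO after thinning, from very few UMIs.

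The band for a list median was the typical counting interval of a single gene in the list, which is wider than the error of a median. Under the alternatives, 481 medians stayed within this band of the main value, 53 moved beyond it and 5 reversed. The 481 include settings that leave the cells of a cross as they were or shift all ratios alike, so they do not measure how stable the lists are. A reversal was counted only where the main median was at least 2-fold, so smaller medians that changed sign are not among the 5. In the Bdnf cross the matrix fibroblast list reversed to 0.28 with at least 4 markers and 0.067 in pericyte-led cells, and the mesothelial and adventitial list to −0.43 in pericyte-led cells. In the Hgf cross the AT2 list reversed to 0.81 with free RNA subtracted and the AT1 list to −0.29 with at least 2 markers. The subtraction was itself set on AT2 genes, so the AT2 value of 0.81 is a remainder of that setting. Of the ratios of named genes, 1026 stayed, 183 moved and 16 reversed. In pericyte-led cells Mt2 turned to −0.39, Dynlt1f to −0.56, Mfap4 to 0.0098 and Ogn to 1.51. After thinning Vpreb3 and Dynlrb2 turned to −0.22, Tuba1b and Gatm to 0.36 and Aff2 to 0.58. With at least 2 markers Cyp2s1 turned to −0.038, Igfbp5 to −0.28, H19 to 0.70 and Tubb2a (Hgf cross) to 0.38. With at least 4 markers Spon1 turned to 3.18 and Ogn to 3.67, and with no smooth muscle or myofibroblast UMI Cog4 to −0.44. The cause was not tested. With 112216 UMIs in pericyte-led cells, the Hgf control sets the least depth, where 3 UMIs are the floor.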

Other observations

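Imprinted growth genes, many of which fall in lung after birth, were measured in pericyte-led cells as well. The cell cycle inhibitor gene Cdkn1c had 1351, 1409, 1105 and 1265 CPM and the G-protein gene Gnas 3127, 2891, 3119 and 3123 CPM, with similar levels in the 4 libraries. The non-coding RNA Meg3 had 198, 229, 138 and 154 CPM, and Ndn, which encodes necdin, 261, 207, 98.0 and 109.5 CPM, higher in both Bdnf libraries than in both Hgf libraries. Of 11 genes of this list with 30 UMIs in the Bdnf cross, 1 was at least 2-fold higher (Igf2, with an interval that includes 0) and 1 lower (H19), against 4.44% and 2.4% of all genes, and 0 of 7 passed in the Hgf cross. Over all pericytes, 2 of 16 were higher in the Bdnf iPCKO and 6 lower, against 6.37% and 8.68% of all genes. The median log2 ratio was −0.37. In the Hgf cross 1 of 8 was higher over all pericytes, against 10.3% of all genes.

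The share of UMIs that the AT2 genes place at the level of free RNA was 34.3, 61.8, 25.4 and 21.4% over all pericytes and 4.69, 7.56, 4.81 and 4.88% in pericyte-led cells, a split that itself leaves out cells with many UMIs of AT2 genes. Over all pericytes the share also takes in AT2 RNA of the cells led by AT2 markers.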
